A study of Sus scrofa with 27 samples.

Results

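The protein p53 is a transcription factor that is held at a low level by the ubiquitin ligase MDM2 and its partner MDM4, and that activates genes of cell cycle arrest, DNA repair, growth restraint and apoptosis when a cell is stressed. Several of its targets, MDM2 among them, feed back on p53. In the granulosa cells of the ovarian follicle, p53 and its target CDKN1A, which encodes the cyclin-dependent kinase inhibitor p21, are known for their part in the arrest and loss of cells.

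The genes described here are p53 targets and partners other than CDKN1A, namely MDM2, MDM4, CCNG1, ZMAT3, BTG2, GADD45A, TP53INP1, PHLDA3 and AEN. They were chosen by name, as 9 of the 35670 gene identifiers in the count files. A gene symbol could be joined to the count rows of 8 of them, all 8 passed the filter on low counts, and PHLDA3 was not analysed here. CDKN1A is given as the reference gene, because the question was whether its fall in restricted sows went together with the rest of the p53 programme.

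RNA was measured in mural granulosa cells cut by laser from 27 sows, 1 follicle per sow. Daily feed over the final 2 weeks of lactation was 6.5 kg for the 13 full-fed (FF) sows and 3.25 kg for the 14 restricted (RES) sows. All were primiparous wild type Large White × Norwegian Landrace crosses, and the ovary was taken on day 2 after weaning. From weaning on, all sows received the same daily ration, which was smaller than that of either group before. From each right ovary the biggest follicle judged healthy was used, and the sows were picked from a larger trial for the least (FF) and the most (RES) body weight lost, so the groups are selected sows rather than a random draw. The study reports that the sampled follicle was smaller in RES sows. It also reports that CDKN1A was higher in larger follicles in RES but not in FF. Diet and follicle size therefore cannot be told apart here, and the part of follicle size was not tested.

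The libraries held between 12299220 and 16021200 counted fragments in FF and between 12942198 and 18120922 in RES. The least abundant members rested on few reads, since AEN had 22 to 81 counts per library in FF and 17 to 56 in RES. MDM4, by comparison, had 1071 to 1476 counts in FF and 1082 to 1957 in RES. By the study's own listing of sequencing quality, libraries also fell into an upper and a lower group of read quality, 7 and 6 libraries in FF and 7 and 7 in RES, and values within these groups are given beside the pooled ones. The listed quality of FF replicate 10, placed in the lower group, may belong to another sow, and values with it counted as upper are given where they change a call. The study's listing gives this replicate the lowest RNA integrity, and the study left out an FF sow for an abnormal integrity pattern. Its library had the fewest counted fragments (12299220) and the lowest FF values of CCNG1 and ZMAT3. In tissue of this kind, fewer cells of a type and less RNA per cell cannot be told apart.

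All members lie on separate chromosome segments of the pig genome (Sscrofa11.1), each is protein coding, and no other annotated gene overlaps any of them. MDM2 (ENSSSCG00000000488) occupies chr5:33105717-33137602, MDM4 (ENSSSCG00000015284) chr9:65175488-65219747 and CCNG1 (ENSSSCG00000017024) chr16:60349255-60356737. ZMAT3 (ENSSSCG00000033860) occupies chr13:117113272-117147639, BTG2 (ENSSSCG00000055218) chr9:64033853-64037795 and GADD45A (ENSSSCG00000037066) chr6:144940702-144944089. TP53INP1 (ENSSSCG00000034321) occupies chr4:41747654-41766688, AEN (ENSSSCG00000005102) chr1:191200625-191211884 and CDKN1A (ENSSSCG00000001565) chr7:32354776-32363771.

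Because p53 binds DNA at a pair of 10-base units, each built around a core of 4 bases that starts with C and ends with G, both strands of the 2500 bases before and after each gene's annotated start were searched for 2 adjoining units. Up to 2 mismatches to the consensus were allowed, with the C and the G of each core kept. A match was found in 6 of the 9 genes (the 8 measured members and CDKN1A), against 320 of 10578 tested genes (3.03%). The matched stretches show how closely each gene carries the motif. They are printed 5′ to 3′ on the strand of the gene, whose sign is given, with the cores in capitals.
MDM2, intron, 1 mismatch, chr5:33106505-33106524 (+): ggtCAAGttcggaCAAGttc
CCNG1, intron, 1 mismatch, chr16:60356399-60356418 (-): taaCAAGttcaggCTAGtcc
ZMAT3, intron, 0 mismatches, chr13:117145996-117146015 (-): aaaCAAGtccagaCATGtct
ZMAT3, untranslated exon, 2 mismatches, chr13:117147514-117147533 (-): gggCTTGcctgggCCAGctg
BTG2, intron, 2 mismatches, chr9:64035057-64035076 (+): ggcCTTGcctggaCATGcca
GADD45A, intron, 2 mismatches, chr6:144942439-144942458 (-): gaaCATGtctaagCACGttg
AEN, untranslated exon, 2 mismatches, chr1:191211824-191211843 (-): gggCTTGtctgggCATGtgg

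All 7 matches lay downstream of the start, between 41 and 1631 bases from it. ZMAT3 was the only one of these genes with 2 matches and the only one with a match free of mismatches. For TP53INP1, MDM4 and CDKN1A the search found no stretch of this kind in the window, and binding was not measured. A match is a likeness of letters and not an observed binding site.

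TP53INP1 and AEN were lower in RES sows, and the other 6 members did not pass the test. The 2 called members were both on the lower side, in a comparison in which 14.1 percent of the 11384 tested genes were called, 5.85 percent lower and 8.29 percent higher in RES. With 8 genes, 2 called is near that background. The median log2 fold change was -0.19 over the members and -0.02 over all tested genes, and 5 members were on the negative side and 3 on the positive. CDKN1A itself was lower by more than any of them, at -1.19 on the log2 scale with an SE of 0.24 (edgeR, adjusted p = 0.0025). Its normalized counts were 65.9, 139 and 302 at the lowest, median and highest FF sow and 16.6, 67.5 and 124 in RES, so that none of the 14 restricted sows reached the FF median. Only 67 tested genes (0.589 percent) had a log2 fold change at or below that of CDKN1A.

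**Figure D1:**
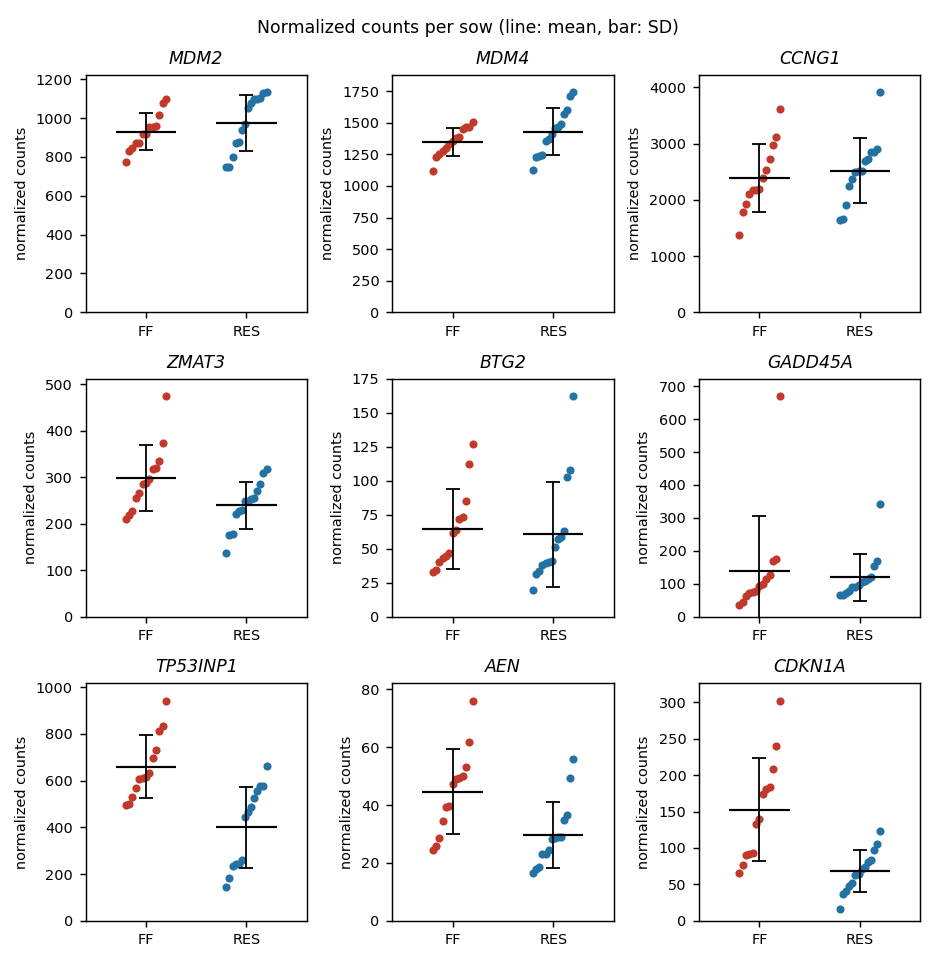
Normalized counts (vertical axes, linear, from 0) of the 8 measured members and CDKN1A in each of 13 FF and 14 RES sows, with 1 point per sow, the mean as a line and the SD as a bar, which for GADD45A in FF reaches below the axis. TP53INP1, AEN and CDKN1A sit lower in RES, GADD45A has 1 FF sow at 669, and MDM2, MDM4 and CCNG1 overlap over most of their range.

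The negative regulators of p53 were close to level between the diets. MDM2, which marks p53 for degradation, had 774, 919 and 1098 normalized counts at the lowest, median and highest FF sow and 747, 1013 and 1133 in RES. The 2 ranges nearly coincided, and 5 of 14 RES sows were below the FF median. The means were 930 ± 94.9 (SD, n = 13) and 975 ± 143 (SD, n = 14), and the log2 fold change was 0.03 (SE 0.08, 95% interval -0.13 to 0.19, adjusted p = 0.854, edgeR).

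MDM4, the partner that blocks the activating domain of p53, had 1122, 1352 and 1508 normalized counts in FF and 1126, 1435 and 1742 in RES at the lowest, median and highest sow. The lowest sows were alike, and 4 RES sows lay below the FF median. The log2 fold change was 0.04 (SE 0.07, 95% interval -0.11 to 0.19, adjusted p = 0.739, edgeR). For both genes the interval reached no further than 0.19 on the log2 scale in the positive direction, whereas the interval of CDKN1A ran from -1.69 to -0.69.

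CCNG1, which encodes the cyclin G1 that recruits a phosphatase to MDM2, was also close to level. It had 1374, 2195 and 3610 normalized counts in FF and 1633, 2507 and 3915 in RES, with means of 2391 ± 600 (SD, n = 13) and 2520 ± 580 (SD, n = 14). The groups overlapped over nearly all of their range, and the log2 fold change was 0.04 (SE 0.13, 95% interval -0.23 to 0.30, adjusted p = 0.883, edgeR).

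TP53INP1, a stress-induced nuclear protein that acts in apoptosis and autophagy, was the most changed member. It had 497, 614 and 942 normalized counts at the lowest, median and highest FF sow and 145, 456 and 662 in RES. Of the RES sows, 13 were below the FF median and 9 below the lowest FF sow. The means were 660 ± 137 (SD, n = 13) and 400 ± 174 (SD, n = 14), and the log2 fold change was -0.75 (SE 0.20, 95% interval -1.16 to -0.34, adjusted p = 0.0132, edgeR). The call held when each sow was left out in turn.

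The RES sows were not evenly spread in TP53INP1. In 6 of them it lay between 145 and 258 normalized counts and in the other 8 between 444 and 662, with no sow between. Of the 6 low sows, 5 had libraries of upper read quality, and of the 8 others, 6 had libraries of lower read quality. The log2 fold change was -1.17 within the upper read quality group (adjusted p = 0.0176) and -0.37 within the lower (adjusted p = 0.458), both by edgeR. These 2 folds differed by -0.79 (SE 0.38), and edgeR's interaction term gave p = 0.0448 before and 0.401 after adjustment (0.0763 and 0.993 with FF replicate 10 counted as upper). With read quality group as a covariate the log2 fold change was -0.79 (adjusted p = 0.0103, edgeR).

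AEN, an exonuclease that digests DNA during apoptosis, had 24.6, 47.1 and 76.1 normalized counts in FF and 16.6, 28.5 and 55.9 in RES. The ranges overlapped, with 12 RES sows below the FF median and 6 below the lowest FF sow. Its means were 44.6 ± 14.7 (SD, n = 13) and 29.7 ± 11.5 (SD, n = 14), and it fell by 0.63 on the log2 scale (SE 0.19, adjusted p = 0.0289, edgeR). Without FF replicate 5 it was -0.58 (adjusted p = 0.0507, edgeR) and without FF replicate 13 it was -0.54 (adjusted p = 0.0556), just past the threshold with a fold of similar size. Within the upper and the lower read quality group its log2 fold changes were -0.51 and -0.75, neither of which passed the test.

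ZMAT3, an RNA-binding zinc finger protein that restrains growth, lay next to the threshold. It had 210, 287 and 474 normalized counts in FF and 136, 249 and 317 in RES, and 12 RES sows were below the FF median. The log2 fold change was -0.35 (SE 0.12, 95% interval -0.61 to -0.09), with an adjusted p of 0.056 by edgeR. ZMAT3 passed the threshold with the DESeq2 Wald test (adjusted p = 0.0413), with upper-quartile scaling (0.0385), with edgeR's own expression filter (0.0458), with limma voom (0.0386) and when any of 6 sows was left out, FF replicates 1, 4 and 10 and RES replicates 7, 8 and 10. Within the upper read quality group it was -0.49 (adjusted p = 0.034, edgeR) and within the lower -0.21 (adjusted p = 0.713). With FF replicate 10 counted as upper, the upper group gave -0.44 (adjusted p = 0.0757), while the covariate fit passed (-0.37, adjusted p = 0.041).

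**Figure D2:**
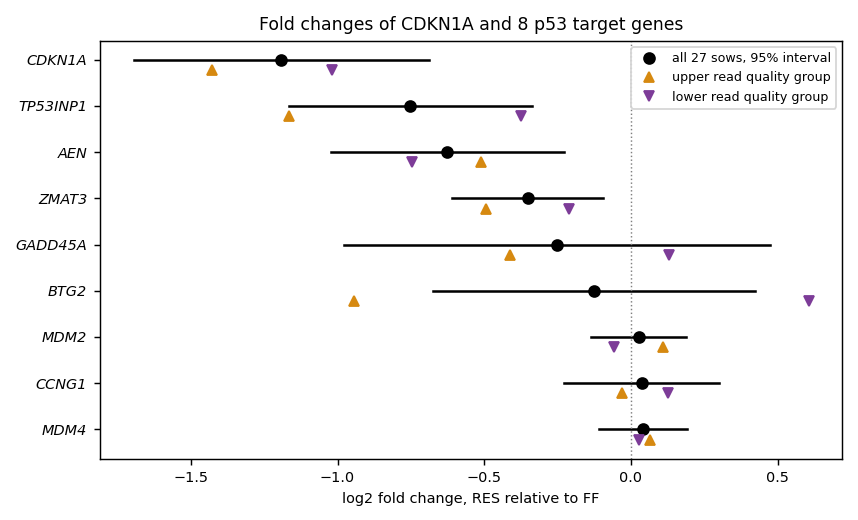
The log2 fold change of RES relative to FF (horizontal axis) for CDKN1A and the 8 members, with black points and 95% intervals for all 27 sows and triangles for the fold within the upper and the lower read quality group. The intervals of CDKN1A, TP53INP1, AEN and ZMAT3 lie below 0, those of MDM2, MDM4 and CCNG1 are narrow around 0, and BTG2 takes opposite signs in the 2 read quality groups.

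BTG2 and GADD45A, both growth restraint genes of the immediate stress response, were the most variable members. BTG2 had 32.6, 61.6 and 127 normalized counts in FF and 19.6, 46.0 and 162 in RES, so the RES range enclosed the FF range. Its log2 fold change was -0.13 (SE 0.27, 95% interval -0.67 to 0.42, adjusted p = 0.793, edgeR). Within the upper read quality group BTG2 was lower in RES, at -0.95 (adjusted p = 0.0174, edgeR), with 43.1 to 127 normalized counts in FF and 19.6 to 58.8 in RES. In that group 17.8 percent of tested genes were called, against 0.00878 percent in the lower group. Within the lower group the value was 0.61 (adjusted p = 0.537). These folds differed by -1.55 (SE 0.46), with p = 0.00228 before and 0.192 after adjustment, and no gene of 11384 passed that interaction test in edgeR, although 1398 had an unadjusted p under 0.05.

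GADD45A, which acts in growth arrest and DNA repair, had 35.5, 94.3 and 669 normalized counts in FF and 64.3, 101 and 343 in RES. FF replicate 4 held the value of 669, while the next FF sow stood at 173. The log2 fold change was -0.25 (SE 0.35, 95% interval -0.98 to 0.47, adjusted p = 0.671, edgeR), and without FF replicate 4 it was 0.29, so its direction rested on that sow.

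The members were then set against CDKN1A within the same library. CDKN1A was chosen because it was lower in RES, so a gene with no change has a higher ratio to it by construction, and 91.1 percent of all tested genes were higher in RES by this ratio at an unadjusted p under 0.05. The ratio therefore mostly restates each gene's own fold, and it is given as a description. It was higher in RES by 1.22 on the log2 scale for MDM2, 1.23 for MDM4, 1.24 for CCNG1 and GADD45A, 0.85 for ZMAT3 and 0.98 for BTG2, and by 0.56 for AEN and 0.31 for TP53INP1.

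Across sows of the same diet the members did not follow CDKN1A as a set. Pearson's r with CDKN1A was positive for 4 of 8 members in FF and 4 of 8 in RES, with medians of 0.03 and 0.07. Over all tested genes, 48.1 percent had a positive r in FF and 51.5 percent in RES. Of the 16 correlations, 1 passed the adjusted threshold in FF and 3 in RES by the permutation test. Strong relations with CDKN1A were common among all genes, since 10.6 percent in FF and 13.6 percent in RES had an r of at least 0.5, and 7.26 percent and 16.6 percent an r of -0.5 or below.

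In FF the gene that passed was ZMAT3, with r = 0.84 (n = 13, adjusted permutation p = 0.00768) and Spearman's rho of 0.79 (permutation p = 0.00173). Of all tested genes, 0.281% had an r at or above it. The r was 0.72 within the upper and 0.96 within the lower read quality group. FF replicates 12 and 2, with the highest CDKN1A, also had the highest ZMAT3, and without them, over a narrower range of CDKN1A, r was 0.57 (permutation p = 0.0716), so the call was lost when both were left out. With each FF sow left out in turn r ran from 0.70 to 0.92 and still passed. In RES the r of ZMAT3 was 0.31 (adjusted permutation p = 0.404).

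In RES, TP53INP1 was higher where CDKN1A was higher, with r = 0.72 (n = 14, adjusted permutation p = 0.0185) and rho of 0.71 (permutation p = 0.00506). An r at or above it was found in 2.44% of tested genes. Pearson's r was 0.85 within the upper and 0.39 within the lower read quality group. Since TP53INP1 was split by a gap in RES, r was also taken on each side of it, a step added after the values were seen, which narrows the range. It was 0.72 over the 6 low sows (exact permutation p = 0.117) and 0.69 over the 8 high sows (exact permutation p = 0.0625). Without RES replicate 1 or 7 alone its adjusted p was 0.0852 or 0.0579. Without RES replicates 7 and 1, the sows farthest from the CDKN1A median, r was 0.54 (permutation p = 0.0716) over a narrower range, and the call therefore rested on them. In FF the r of TP53INP1 was -0.10 (adjusted permutation p = 0.787), and the difference between the diets, 0.83, had an adjusted permutation p of 0.223.

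CCNG1 and MDM2 had negative correlations with CDKN1A in RES. CCNG1 had r = -0.72 (n = 14, adjusted permutation p = 0.0185) and rho of -0.74 (permutation p = 0.00326), with -0.90 within the upper and -0.88 within the lower read quality group. In RES 6.12% of tested genes lay below the r of CCNG1 and 8.99% below that of MDM2. Without the 2 farthest sows the r of CCNG1 was -0.68 (permutation p = 0.012, 0.182 after adjustment). MDM2 had r = -0.65 (adjusted permutation p = 0.0494) and rho of -0.67 (permutation p = 0.0116), with -0.53 and -0.59 within the quality groups. Leaving out any of 9 RES sows (replicates 1 to 7, 11 and 12) lost the MDM2 call, with adjusted p-values of up to 0.143, and leaving out RES replicate 5 or 7 lost that of CCNG1 (0.0619 and 0.0579). Both calls were also lost on log2 counts (adjusted permutation p = 0.0627 for CCNG1 and 0.0647 for MDM2) and with TMM-scaled counts (0.0771 and 0.28), where r was -0.63 and -0.50.

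For MDM2 the sign of the relation differed between the diets. Its r was 0.47 in FF (n = 13, adjusted permutation p = 0.209) and -0.65 in RES, a difference of -1.12 (adjusted permutation p = 0.00832 over the 8 members). Of all tested genes, 17.5 percent had a difference with an unadjusted permutation p under 0.05, so 1 of 8 members is near the background, and 2.26 percent had a difference at or below that of MDM2. In RES the 7 sows with 1054 to 1133 MDM2 counts had 16.6 to 73.5 CDKN1A counts, whereas the 7 with 747 to 972 had 52.0 to 124. On each side of this gap, with 7 sows and a narrower range, r was -0.21 in the low and -0.11 in the high set (exact permutation p = 0.64 and 0.818), values added after the gap was seen. Of these sows, 5 of the 7 high sows had libraries of upper and 5 of the 7 low sows libraries of lower read quality. The difference was -1.29 within the upper and -0.82 within the lower read quality group, neither passing the test (adjusted permutation p = 0.168 and 0.684), and with TMM-scaled counts it was -0.90 (adjusted permutation p = 0.0503).

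**Figure D3:**
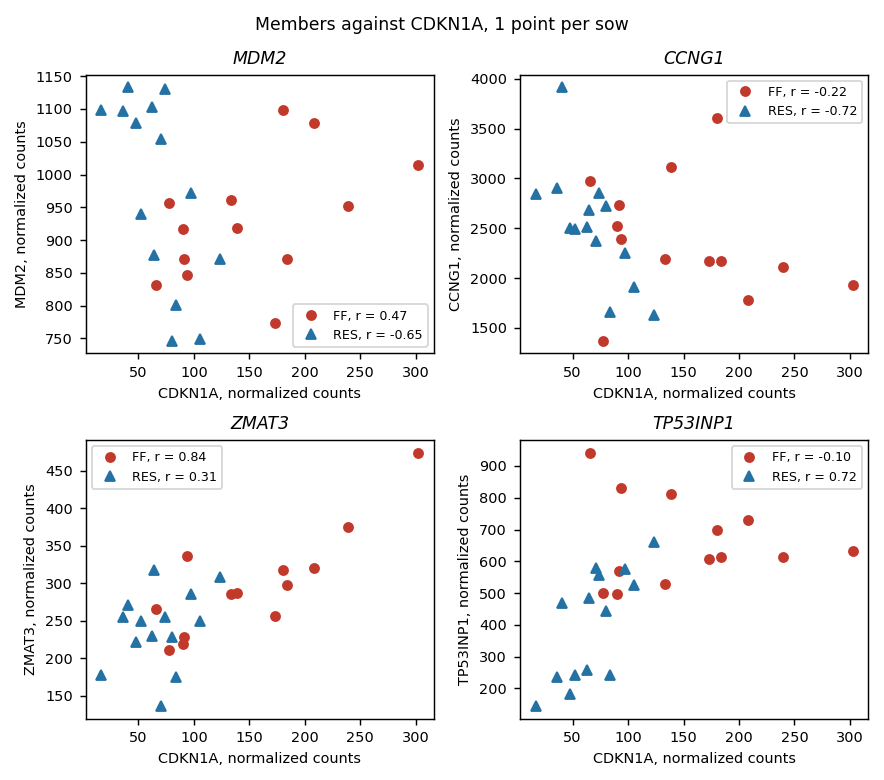
Normalized counts of MDM2, CCNG1, ZMAT3 and TP53INP1 (vertical axes, not from 0) against those of CDKN1A (horizontal axes), 1 point per sow, red circles for FF and blue triangles for RES, with Pearson's r for each diet. ZMAT3 follows CDKN1A in FF (0.84), TP53INP1 follows it in RES (0.72), and MDM2 leans one way in FF (0.47) and the other in RES (-0.65).

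The remaining 4 members showed no relation past the adjusted threshold in either diet. MDM4 had r of -0.37 in FF and -0.56 in RES, BTG2 0.48 and 0.47, GADD45A -0.32 and 0.14, and AEN 0.17 and -0.00445. The BTG2 value in FF rested on FF replicates 12 and 2, without which it was -0.35. Without FF replicate 1 the r of MDM4 in FF was -0.71 (adjusted permutation p = 0.0396).

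Relations among the members themselves were mixed. Over the 28 pairs the median r was 0.06 in FF, from -0.32 to 0.73, and -0.03 in RES, from -0.62 to 0.83, as a description with no test. In FF only ZMAT3 and BTG2 reached 0.5, at 0.73. In RES the pairs at or above 0.5 were MDM2 with MDM4 (0.83), MDM4 with CCNG1 (0.64) and MDM2 with CCNG1 (0.61). BTG2 lay opposite to MDM4 and MDM2 in RES, at -0.62 with each. Within the upper and the lower read quality group of RES, MDM2 with MDM4 gave 0.48 and 0.90, MDM2 with BTG2 -0.21 and -0.49, and MDM4 with BTG2 -0.57 and -0.55.

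Each member was also matched with the tested genes whose values ran most like it over the 27 libraries once the diet means were removed. TP53INP1 had the closest partners, ATOSA (r = 0.87) and TCP11L2 (r = 0.84), both of which were lower in RES, with log2 fold changes of -0.74 and -0.83 (adjusted p = 0.0338 and 0.0334, edgeR). MDM4 ran most like LUC7L2 (0.82) and ZFC3H1 (0.81), CCNG1 like ATP6V1C1 and RPL7 (both 0.82), and ZMAT3 like PARD6B (0.79) and CALCRL (0.78). MDM2 ran most like PIBF1 and GKAP1 (both 0.78), GADD45A like SPINK6 (0.78) and MYOCD (0.77), BTG2 like SCPEP1 (0.67) and LRSAM1 (0.65), and AEN like SYNPO2L (0.57) and SPEF1 (0.56). No member had another member or CDKN1A among its closest genes.

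Of 44 further p53 targets on a list, 39 had an identifier and 32 were abundant enough to test. Among these 4 fell and 2 rose in RES, 23 of 32 (71.9%) had a negative fold, and the median log2 fold change was -0.15. Of all tested genes 5.85 percent fell, 8.29 percent rose and 52.7% had a negative fold, so the 6 called (18.8%) stand near the 14.1 percent called in either direction. The share that fell was 12.5%, against 5.85 percent, and the lean to negative folds was not tested. Those that fell were the sestrins SESN1 and SESN2, which hold back a growth kinase complex that senses nutrients, DRAM1, a lysosomal protein of autophagy, and SERTAD1. SESN1 had 291, 539 and 984 normalized counts at the lowest, median and highest FF sow and 241, 369 and 643 in RES, and fell by 0.55 (SE 0.17, adjusted p = 0.0263, edgeR). Without FF replicate 6 or FF replicate 14 the adjusted p of SESN1 was 0.0595 or 0.0526. DRAM1 had 64.4, 92.4 and 119 in FF and 35.0, 59.5 and 104 in RES, and fell by 0.56 (SE 0.14, adjusted p = 0.0068, edgeR). SESN2 was near the lower limit of detection, with 3.85 to 16.9 in FF and 1.93 to 11.2 in RES, and fell by 0.96 (SE 0.29, adjusted p = 0.0252, edgeR). In each of these genes the groups overlapped, with 11, 12 and 11 of 14 RES sows below the FF median.

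SERTAD1, a cofactor of cell cycle transcription, fell by 0.47 (adjusted p = 0.0415, edgeR), a call lost when any of 15 of the 27 sows was left out (FF replicates 1, 2, 4, 5, 7 and 12 and RES replicates 1, 2, 3, 4, 6, 9, 11, 12 and 14), with adjusted p-values of up to 0.0774. POLH, a polymerase that copies past damaged DNA, rose from a mean of 348 ± 66.4 (SD, n = 13) to 534 ± 103 (SD, n = 14) normalized counts. Its log2 fold change was 0.57 (SE 0.10, adjusted p = 0.0018, edgeR), and 1 RES sow lay below the FF median. BLOC1S2 rose by 0.38 (SE 0.11, adjusted p = 0.0213, edgeR). In the lower read quality group the adjusted p of the 6 called targets was 0.116 (POLH) or above by edgeR, and in the upper group DRAM1 (adjusted p = 0.0668, edgeR) and SERTAD1 (0.113) did not. The most abundant of the targets that did not pass were FBXO22, BTG1, TOB1 and RPS27L, with log2 fold changes of 0.02, -0.08, -0.45 and -0.22.

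**Figure D4:**
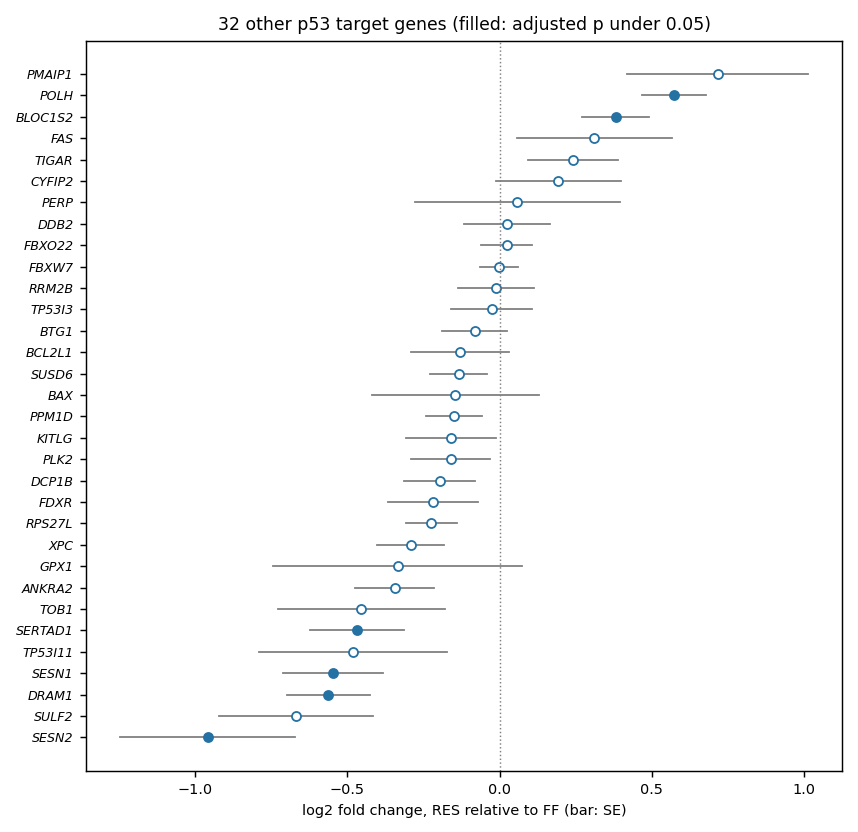
The log2 fold change of RES relative to FF (horizontal axis, bars are SE) for the 32 tested p53 targets outside the main set, ordered by fold, with filled points for genes with an adjusted p under 0.05. SESN2, DRAM1, SESN1 and SERTAD1 are filled on the negative side, POLH and BLOC1S2 on the positive side, and 23 of 32 points lie below 0.

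Of 23 tested regulators of p53, 3 rose, and the median log2 fold change over the list was 0.06. The share called, 13.0%, was at the background of 14.1 percent. CHEK1, a checkpoint kinase of DNA replication, went from 93.9, 198 and 430 normalized counts in FF to 99.8, 416 and 618 in RES. It rose by 0.96 on the log2 scale (SE 0.22, adjusted p = 0.0051, edgeR). NPM1, a nucleolar protein that binds MDM2, rose by 0.49 (SE 0.13, adjusted p = 0.0128, edgeR). CHEK2 rose by 0.37 (adjusted p = 0.0398, edgeR), a call lost when any of 13 of the 27 sows was left out (FF replicates 2, 6, 7, 8 and 14 and RES replicates 1, 2, 3, 6, 8, 9, 11 and 12), with adjusted p-values of up to 0.0779. The ribosomal proteins RPL5, RPL11 and RPL23, which bind MDM2, and the kinase ATM had log2 fold changes of 0.07, 0.08, 0.18 and -0.10 and did not pass.

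The other genes with a motif match near the start were counted in the same comparison. With the members left out, 314 were tested, of which 36 (11.5%) rose and 15 (4.78%) fell, with a median log2 fold change of -0.03. Over all tested genes 8.29 percent rose and 5.85 percent fell, with a median of -0.02.

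Markers of other cells varied between libraries alongside CDKN1A and some members. The granulosa cell markers summed to 4782 to 9775 CPM in FF and 5910 to 10901 in RES, with 1 of 11 called higher (HSD17B1). The 8 theca markers summed to 175 to 1039 in FF and 107 to 996 in RES, with 1 called lower (CYP11A1), and the 9 endothelial markers to 88.5 to 187 and 66.6 to 204, with 3 called lower (EMCN, CDH5 and ESAM). The shares called were 9.1%, 12.5% and 33.3%, against 14.1 percent of all tested genes. None of these markers was at 0 in every library. The lists of other cells lay mostly on the negative side, as CDKN1A did, with 7 of 8 theca, 8 of 9 endothelial, 10 of 10 stroma and 5 of 5 immune markers negative, against 52.7% of all tested genes. Their median log2 fold changes were -0.43, -0.46, -0.23 and -0.56. Within the FF and the RES sows the theca sum had an r with CDKN1A of 0.62 and 0.70, with ZMAT3 of 0.49 and 0.45, with CCNG1 of -0.45 and -0.62 and with TP53INP1 of -0.45 and 0.43. The endothelial sum had an r with CDKN1A of 0.52 and 0.67 and with TP53INP1 of -0.23 and 0.51. These are descriptions over 13 and 14 libraries, and the part of these cells in the results was not tested. The stroma markers summed to 953 to 3506 in FF and 849 to 2965 in RES, with 1 of 10 called lower (PDGFRB). The immune markers summed to 6.34 to 30.1 and 3.48 to 28.4, and the erythroid markers to 2.97 to 72.7 and 0.66 to 9.93, with HBB called lower. Among 24 immediate early genes, which respond to handling of tissue, 2 (8.33%) fell by edgeR, KLF2 and NR4A2, with log2 fold changes of -0.77 and -0.74. Of all tested genes 5.85 percent fell, so this share is near the background.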

How the data were processed

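The deposited files hold UMI-deduplicated fragment counts per Ensembl gene identifier, made by the authors with HISAT2 2.2.1 on Sscrofa11.1, SAMtools 1.16.1 (unique alignments), UMI-tools 1.1.4 and featureCounts 1.6.2 with Ensembl release 110. The library kit marks strand and no strand option is given for the counting, so antisense reads may be included. Each sow is 1 library and a separate animal.

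Counts were joined to gene symbols (15623 identifiers), 38 small RNA symbols were left out, and 11384 genes with a mean count of at least 5 were tested. RES was compared with FF by edgeR 4.0.16 (R 4.3.3, TMM scaling, quasi-likelihood test, two-sided) with Benjamini-Hochberg adjustment over all 11384 genes, and genes with an adjusted p under 0.05 are said to rise or fall. The 95% intervals used 25 degrees of freedom. Normalized counts are counts divided by DESeq2 1.42.0 size factors. Correlations, their differences between diets and ratios to CDKN1A (log2, pseudocount 0.5) were tested with 100000 permutations, two-sided, adjusted over 16, 8 and 8 values. The design foresaw 9 members, and 8 were measured. Read quality group and RNA integrity came from the study's listing, and the values listed for FF replicate 10 may belong to another sow. The scripts were tested on simulated data.

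The members and lists were chosen with earlier results of these data known. The text names every member and CDKN1A, every called gene of the p53 target and regulator lists with up to 4 of the most abundant others, and the 2 genes most like each member. Marker and immediate early genes named besides these were named because they were called. Alternatives were DESeq2, limma 3.58.1 voom, other scalings and filters, a replicate block, covariates, and each library left out.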

Additional observations from a re-analysis of the deposited data

Results flagged for a closer look

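The correlation of MDM2 with CDKN1A differed between the diets. Pearson's r was 0.47 in the 13 FF sows and -0.65 in the 14 RES sows, a difference of -1.12 with an adjusted permutation p of 0.00832 over the 8 members. It was the only member of the 8 whose difference passed that test, which is near the background, since 17.5 percent of all tested genes differed between the diets at an unadjusted permutation p under 0.05. A difference at or below that of MDM2 was found for 2.26 percent. With each library left out in turn the difference ran from -1.25 to -1.06 and passed each time. With TMM-scaled counts it was -0.90 (adjusted permutation p = 0.0503). MDM2 varied little between sows, with an SD of 94.9 around a mean of 930 in FF and of 143 around 975 in RES.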

How the results depend on the processing

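The calls of TP53INP1 and AEN kept their direction under every alternative and were lost in the lower read quality group, where the count of called members was 0, AEN also in the upper group. With each library left out, 1 (without FF replicate 5 or 13) to 3 members were called. The direction of small folds was not stable. MDM2 was at -0.00161 with upper-quartile scaling and -0.058 in the lower group, CCNG1 at -0.0304 in the upper group, BTG2 at 0.606 in the lower group, and GADD45A at 0.032 with the replicate block, 0.115 with voom and 0.129 in the lower group. With FF replicate 10 counted as upper read quality, a choice made after the data were seen, the lower group gave 0.575 for BTG2, 0.455 for GADD45A and -0.0335 for MDM2. The member calls of the upper group were then TP53INP1 and BTG2, without ZMAT3, and the MDM2 difference of r came to -1.22 (upper) and -1.04 (lower). Leaving out libraries, CCNG1 ran from -0.028 to 0.096 and GADD45A from -0.495 to 0.290. Of the further targets and regulators, 9 were called, 16 with voom and 0 in the lower group. Over all genes 1610 were called, 944 higher and 666 lower. The split was 1197 and 522 with DESeq2 size factors in edgeR and 851 and 813 with upper-quartile factors, and totals were 3193 with voom, 1084 with the replicate block and 1182 to 2350 with a library left out. Without FF replicate 10 the total was 2086.

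Of the 16 correlations 4 passed, against 2 on log2 counts, 2 with TMM scaling, 0 without the 2 farthest libraries, 2 in the upper and 0 in the lower group, and 1 (without RES replicate 7) to 5 with a library left out. Signs changed for TP53INP1 in FF (0.181 as rho, 0.342 in the lower group, -0.241 to 0.171 with a library left out), AEN in RES (0.138 as rho, 0.092 on log2 counts, 0.0397 with TMM, 0.023 in the lower group, -0.089 to 0.138 with a library left out), AEN in FF (-0.11 in the lower group), and, without the 2 farthest libraries, BTG2 in FF (-0.351) and ZMAT3 in RES (-0.094). Of the differences between diets 1 passed, and 0 with TMM or in either quality group. Reversed ones were BTG2 (0.166 on log2 counts, 0.00432 with TMM, -0.164 to 0.223 with a library left out), MDM4 (0.024 with TMM, -0.323 to 0.150 with a library left out) and AEN (0.133 in the lower group). Of the ratios 6 passed, 3 in the upper and 1 in the lower group. The quality groups hold fewer sows, and otherwise the cause was not tested.

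The replicate numbers do not pair the sows: same-numbered sows had deviations that correlated at -0.27 to 0.33 (median 0.01), 3 of 13 over 0.1, and 1 of 13 best with its own number. With the replicate block, TP53INP1 and AEN were still called (adjusted p = 0.0131 and 0.0255, edgeR), whereas SESN2 (0.0931), BLOC1S2 (0.0565), SERTAD1 (0.0823) and CHEK2 (0.0553) were not.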
